A study of Mus musculus with 4 samples.

Results

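The 10 genes described here are outputs of the extracellular signal-regulated kinase (ERK) pathway: the immediate-early genes Egr1, Fos, Ier2 and Junb, the MAP kinase phosphatases Dusp4 and Dusp6, the Sprouty genes Spry2 and Spry4, and the ETS factors Etv4 and Etv5. They were taken by symbol from a list of known ERK targets and measured in single mouse embryonic stem (ES) cells by Smart-seq2, a full-length single-cell RNA-seq protocol. All 10 were found among 46078 mouse gene identifiers, and all 10 belonged to the 8730 genes whose 4 group means averaged 20 or more normalized counts, the genes tested here. Wild-type ES cells of the E14 line were cultured in 2i, which holds the MEK inhibitor PD0325901 and the GSK-3 inhibitor CHIRON, and then sorted. The study's methods also give leukemia inhibitory factor (LIF) as part of this medium, whereas the labels name 2i alone. Small cells were taken by a forward and side scatter gate meant for cells leaving mitosis or in G1, and ungated cells served as the control. The cells were then plated on laminin and kept for 6 h either in 2i or in N2B27, the basal medium alone, in which ES cells exit naive pluripotency. Each of the 4 groups (2i small, 2i ungated, N2B27 small, N2B27 ungated) was 1 sample of 24 cells, so no test between groups was possible. Intervals on counts below cover read counting and those on shares cover the number of cells within 1 sample, and neither covers differences between samples. The medium cannot be told apart from the plate and sequencing lane, since all 2i cells lay on one plate and all N2B27 cells on another.

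ERK is activated by MEK, and in ES cells its main input is FGF4 acting through FGF receptors. Immediate-early genes are transcribed within minutes of ERK activation without new protein synthesis and mostly encode transcription factors. Dual-specificity phosphatases and Sprouty proteins are made in response and dampen the pathway, and Etv4 and Etv5 are ETS-family transcription factors whose expression commonly follows FGF signalling. Inhibition of MEK in 2i blocks ERK activation, and its release is a step in the exit from naive pluripotency.

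RefSeq promoter windows on GRCm38.p6 were at hand for 5 of the 10 genes. The 150 bases before the annotated start are shown for the 3 of them that were higher in N2B27 small cells by at least 1 on the log2 scale (Fos, Junb and Dusp6) and for the other two (Spry2 and Etv5). Capitals mark TGACG, the core of the cAMP response element, and GGAAG, a sequence that ETS factors commonly bind, on either strand.
Fos (chr12:85473740-85473889, plus strand): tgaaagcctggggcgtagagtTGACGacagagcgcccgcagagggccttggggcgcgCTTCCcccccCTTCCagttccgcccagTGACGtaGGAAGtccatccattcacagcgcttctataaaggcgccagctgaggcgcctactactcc
Junb (chr8:84978749-84978898, minus strand): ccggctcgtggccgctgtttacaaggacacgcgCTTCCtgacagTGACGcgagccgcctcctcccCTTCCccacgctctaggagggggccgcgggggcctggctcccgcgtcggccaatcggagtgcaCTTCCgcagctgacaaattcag
Dusp6 (chr10:99263081-99263230, plus strand): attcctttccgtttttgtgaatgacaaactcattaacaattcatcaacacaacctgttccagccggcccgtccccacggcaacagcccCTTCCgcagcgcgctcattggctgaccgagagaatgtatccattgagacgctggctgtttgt
Spry2 (chr14:105896820-105896969, minus strand): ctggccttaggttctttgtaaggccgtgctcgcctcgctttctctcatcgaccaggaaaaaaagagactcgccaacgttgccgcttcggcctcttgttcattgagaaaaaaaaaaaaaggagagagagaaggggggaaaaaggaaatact
Etv5 (chr16:22439571-22439720, minus strand): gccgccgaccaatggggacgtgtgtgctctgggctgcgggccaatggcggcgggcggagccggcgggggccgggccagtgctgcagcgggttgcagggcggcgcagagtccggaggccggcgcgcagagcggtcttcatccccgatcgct
Over the 250 bases before the start, the Fos window held TGACG 2 times and GGAAG 4 times, and the Junb window held them 1 and 3 times. The Dusp6 window held GGAAG 2 times and no TGACG, and neither was in the Spry2 window or in the Etv5 window shown. A second RefSeq window of Etv5, not shown, held GGAAG 2 times. Of 32851 promoter windows of that length, 17.8% held TGACG and 64.1% held GGAAG on either strand, so GGAAG is common to most promoters. The CArG box, the serum response element core, was in none of these windows and in 1.47% of all windows. None of the marked letters belong to both motifs, and a match describes the letters only.

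After filtering, 12 of 24 2i small, 22 of 24 2i ungated, 20 of 24 N2B27 small and 21 of 24 N2B27 ungated cells were kept, 75 of 96 in all, with 1364155 to 4844170 counts on genes per cell and group medians from 2582386 to 3331438. All 6 ES cell markers (Pou5f1, Sox2, Nanog, Zfp42, Esrrb, Dppa5a) were counted in at least 50% of the cells of every group. No primitive endoderm, trophoblast, mesoderm or fibroblast marker reached that share in any group, and of the neural list only 1 of 3 did, with Sox1 and Neurog2 at 0 throughout. In the N2B27 groups all 5 fibroblast markers were at 0. By cyclone, a classifier of cell cycle phase, the small groups held 6 G1, 5 S and 1 G2/M cell in 2i and 6, 11 and 3 in N2B27, while the ungated groups held 0, 8 and 14 in 2i and 2, 4 and 15 in N2B27, so gate and phase move together. Among the 2i small cells, 1 cell gave 40.9% of its counts to the ERCC spike-ins and 1 had 15712 genes detected, against group medians of 7462.5 to 9515.5. Both stand apart from the rest, and values without them are given for the members they touch.

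Per kilobase of exon, the mean normalized count in N2B27 ungated cells was highest for Ier2 (337) and Etv5 (259), followed by Dusp6 (138), Egr1 (78.8), Etv4 (70.0), Dusp4 (40.0), Spry2 (38.4), Junb (23.2), Fos (16.2) and Spry4 (5.08). In 2i ungated cells Ier2 (292) and Etv5 (238) again led per kilobase, Spry2 (33.7), Dusp6 (23.0) and Fos (16.3) followed, and the remaining members were at or below 4.73. Ier2 and Etv5 were counted in nearly every cell of every group, whereas Egr1, Fos, Junb, Dusp4, Spry4 and Etv4 each had a group in which at most 1 cell in 5 had 10 or more counts. The plot of single cells shows this split between broadly and sparsely counted members.

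**Figure D1:**
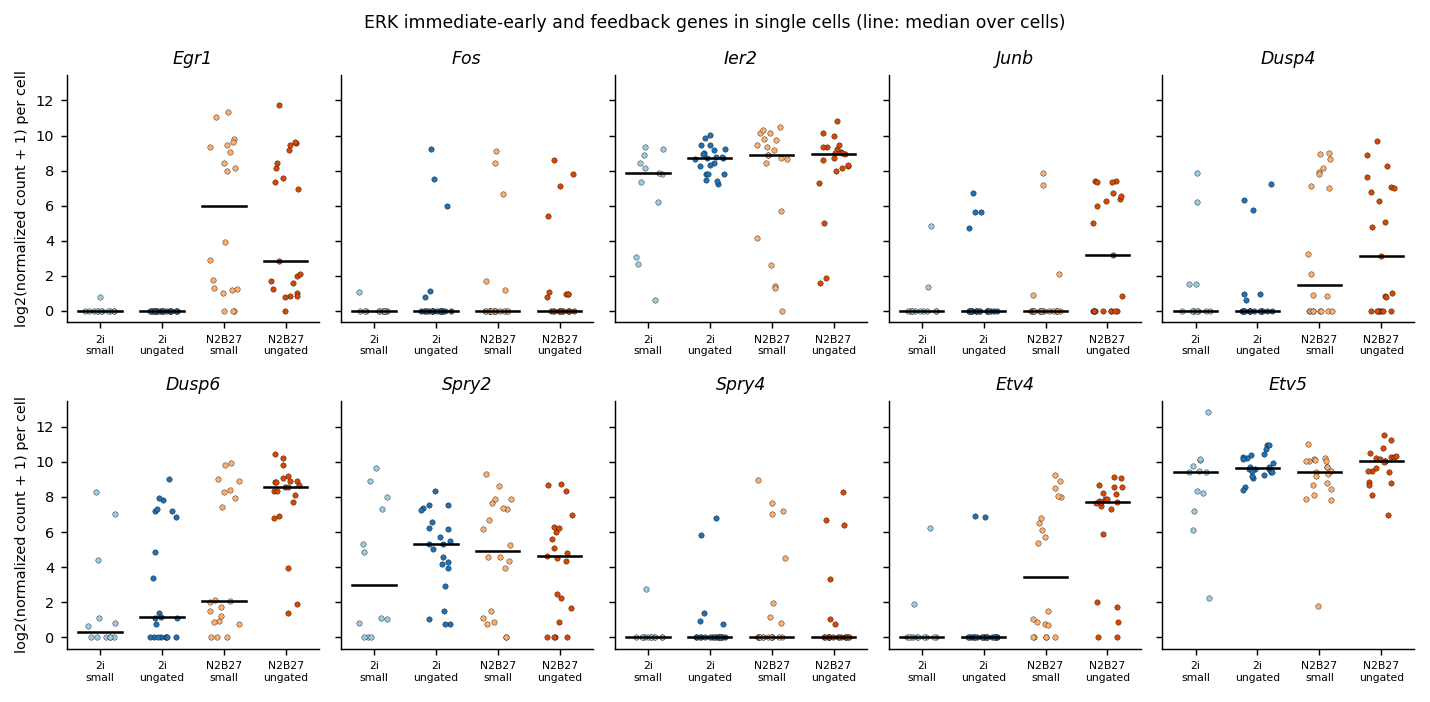
Each point is 1 kept cell, with log2(normalized count + 1) on the vertical axis, the 4 groups on the horizontal axis and a line at the group median. Egr1 had at most 2 counts in any kept 2i cell and reached 3468 normalized counts in N2B27, Etv5 was high in all groups, and most members had both cells near 0 and cells at high values within a group.

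Removal of the inhibitors for 6 h was accompanied by higher levels of most members. In ungated cells, 6 of 10 members (Egr1, Junb, Dusp4, Dusp6, Spry4 and Etv4) were higher in N2B27 than in 2i by at least 1 on the log2 scale and 0 were lower, where 7.49% of all tested genes were higher and 9.92% lower by that much. The median log2 ratio over the 10 members was 1.89, from -0.01 (Fos) to 8.47 (Egr1), against -0.03 over all tested genes. In small cells 8 members were higher in N2B27, those 6 together with Fos and Ier2, and 0 were lower, beside 22.3% and 19.2% of all tested genes. There the median was 2.44, against 0.09 over all tested genes. Without the 2i small cell of highest spike-in share 7 members were higher, since Ier2 was then at 0.97, and without the cell of most genes 8 were. These ratios compare mean normalized counts after adding a pseudocount of 1 to both means. All 10 members were counted as taken by symbol, but of the 6 all except Dusp6 passed the level filter only through the N2B27 groups. Their means in 2i small and ungated cells were 0.06 and 0 for Egr1, 2.39 and 10.4 for Junb and 25.9 and 12.96 for Dusp4. For Spry4 they were 0.48 and 7.76, and for Etv4 6.30 and 10.8. The same held for Fos, among the 8 higher in small cells, with 2i means of 0.096 and 38.4. In each case the 2i means averaged under 20. The place of these genes among the tested genes thus depends on the medium difference itself and lends it no weight. The small-cell contrast rests on 12 kept 2i cells. With size factors from the spike-ins, which keep differences in RNA content, 2.25% of all tested genes were higher and 72.5% lower in N2B27 small cells, and 6 members were still higher and 0 lower. With poscounts size factors 16.4% of all tested genes were higher and 4.37% lower in ungated cells, with 6 members higher and 0 lower.

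Pooled over cells, the counting error of the ungated ratios was small beside their size. The log2 ratio of pooled counts per summed size factor was 2.36 for Junb (2.16 to 2.55), 3.03 for Dusp4 (2.87 to 3.20), 2.66 for Dusp6 (2.58 to 2.73), 1.83 for Spry4 (1.59 to 2.09) and 4.99 for Etv4 (4.77 to 5.22). Reads are not independent molecules, and the spread between cells given below is much wider than these intervals.

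**Figure D2:**
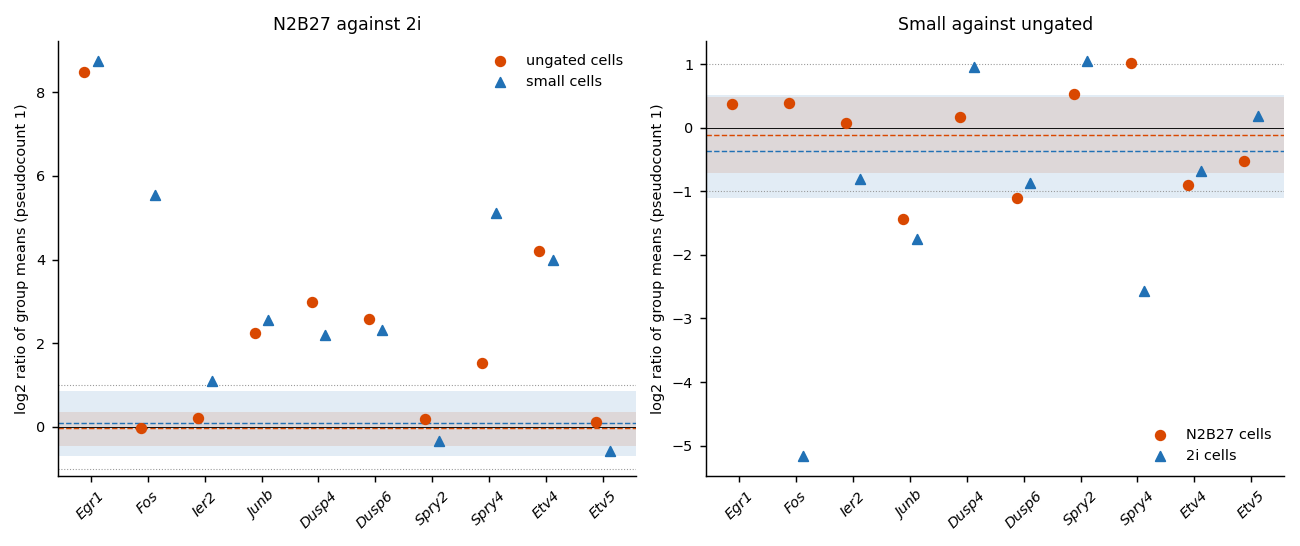
Points give the log2 ratio of group means (pseudocount 1) for each gene, N2B27 against 2i on the left and small against ungated on the right. Dashed lines and bands are the median and the middle 50% of all 8730 tested genes, and dotted lines mark a log2 ratio of 1 in either direction. In the left panel Egr1, Junb, Dusp4, Dusp6, Spry4 and Etv4 lie above the upper dotted line for both gates. Egr1 is left out for 2i on the right, where both groups had 3 counts or fewer.

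Egr1 (ENSMUSG00000038418, chromosome 18, 34859823 to 34864984 on mm10) encodes a zinc finger transcription factor and is a classical readout of ERK activity. It was not counted in any of the 22 kept 2i ungated cells, and 1 of 12 2i small cells held 2 counts. In N2B27 ungated cells it had 8868 counts (Poisson interval 8684 to 9055), with a lowest value of 0, a median of 6.18 and a highest of 3468 normalized counts per cell. In N2B27 small cells it had 10651 counts, with a lowest value of 0, a median of 134 and a highest of 2563. Against a floor of 3 counts over the 2i ungated group, the N2B27 ungated mean of 354 was at least 2971-fold higher. In small cells the ratio was 3707, with a counting interval of 1026 to 30613. Without the cell of most genes, which held both counts, N2B27 small cells were at least 2125-fold above a floor of 3 counts over the other 11 2i small cells. Leaving out the highest cell, which held 52.3% of the ungated and 28.2% of the small N2B27 counts, kept both past the fold. A cell that failed the filter, 1 of 12 excluded 2i small cells, held 262 Egr1 counts and 37.5% spike-in reads, and with no filter on cells the small-cell log2 ratio turned to -2.29. The absence in 2i therefore refers to kept cells. The 0 of 22 cells allows a share of up to 15.4% of cells (exact 95% interval).

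Within N2B27 cells Egr1 varied widely. In the ungated group 10 of 21 cells (47.6%, exact interval 25.7 to 70.2%) had 10 or more counts, with values from 121 to 3468, and the next cell was at 6.18. In the small group 11 of 20 cells (55.0%, 31.5 to 76.9%) did, with values from 14.3 to 2563, and the next cell was at 6.57. The cell at 14.3 stood alone between low and high cells. On the scale of log2(normalized count + 1) it was at 3.93 and the next higher cell at 7.997. Apart from that cell, a wide gap was thus seen in the small group too. A further 10 ungated and 6 small N2B27 cells held 1 to 9 counts, while 33 of 34 kept 2i cells held none. Counts this low can arise from index exchange between cells of a lane, and their origin was not tested. Shares below therefore use the limit of 10 counts, except where 1 count is stated. The log2 ratio for small against ungated cells in N2B27 was 0.38, short of the fold used, and it was -4.43 both with no filter and with fixed limits on cells.

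Fos (ENSMUSG00000021250, chromosome 12, 85473890 to 85477273), a subunit of the AP-1 transcription factor, was sparse everywhere. In 2i ungated cells 3 of 22 had 10 or more counts, at 599, 180 and 62.7 normalized counts. In N2B27 ungated cells 4 of 21 did, at 394, 220, 137 and 41.7, and in N2B27 small cells 3 of 20 did, at 560, 340 and 100. In 2i small cells the gene had 3 counts in all, each in the cell with the most genes detected. The ungated means of 38.0 in N2B27 and 38.4 in 2i gave a log2 ratio of -0.013, which was 6.10 with no filter and 6.02 with fixed limits on cells and kept its sign in 8 of 17 alternatives. Cells at high and at zero values were found in both groups. In small cells the ratio of N2B27 to 2i was 319 (counting interval 109 to 1549). Without the cell of most genes it was 232-fold against a floor of 3 counts over the other 11 2i small cells. Neither value covers the sampling of cells. The 3 of 20 N2B27 cells at 10 counts allowed a share of 3.21 to 37.9%. The 0 of 12 2i cells allowed up to 26.5%, so these shares overlapped. The single highest Fos cell held 50.8 to 63.1% of the counts in the 3 groups with Fos cells.

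What else the Fos cells held is given as a description. In the 7 N2B27 cells with 10 or more Fos counts, Egr1 was at 282 to 2092 normalized counts. All 7 also had 10 or more counts of Ier2, Dusp6, Spry2, Etv4 and Etv5. Of the N2B27 cells without Fos, 28, 20, 20, 19 and 33 had 10 counts of these genes in that order. The numbers that did not were 6, 14, 14, 15 and 1. In the 3 such 2i ungated cells Egr1 was at 0, and none had 10 counts of Dusp4, Dusp6, Spry4 or Etv4, while all 3 had Ier2, Spry2 and Etv5. Egr1 was at 0 in all 22 cells of that group, and of its 19 cells without Fos 3 had 10 counts of Dusp4, 8 of Dusp6, 2 of Spry4 and 2 of Etv4.

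Ier2 (ENSMUSG00000053560, chromosome 8, 84661331 to 84662852), an immediate-early gene for a nuclear protein, was counted broadly in both media. In 2i ungated cells its lowest, median and highest values were 151, 425 and 1024 normalized counts, and in N2B27 ungated cells 2.06, 487 and 1788. The log2 ratio of the ungated means was 0.21, with wide overlap between the groups, and it was -2.66 with no filter and -2.73 with fixed limits on cells. In small cells the values were 0.54, 228 and 644 in 2i and 0, 470 and 1412 in N2B27, a log2 ratio of 1.09 that was 0.97 without the 2i cell of highest spike-in share and turned to -0.62 with spike-in size factors. It stayed past the fold in 12 of 17 alternatives. All 22 2i ungated cells had 10 or more counts, whereas 2 of 21 N2B27 ungated, 4 of 20 N2B27 small and 3 of 12 2i small cells did not.

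Junb (ENSMUSG00000052837, chromosome 8, 84974484 to 84978718), another AP-1 subunit, was highest in the ungated N2B27 group. Its lowest, median and highest values there were 0, 8.13 and 171, and 10 of 21 cells had 10 or more counts. In 2i ungated cells 4 of 22 did, at 106, 49.6, 48.2 and 25.2, with the other 18 at 0. The log2 ratio was 2.26 in ungated cells and 2.56 in small cells, the latter on 2 of 20 N2B27 cells at 232 and 145 against 1 of 12 2i cells at 27.2. Averaging log2 values over cells gave 0.39 for the small-cell ratio, and spike-in size factors gave 0.43. In the annotation 173 of its 2301 exon bases also lie in exons of Prdx2, and the submitters' handling of such reads was not given in the sources used here.

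The phosphatases Dusp4 and Dusp6 were both higher in N2B27 for both gates, in every alternative processing tried. Dusp6 (ENSMUSG00000019960, chromosome 10, 99263231 to 99267489), a cytoplasmic phosphatase specific for ERK, had a mean of 432 in N2B27 ungated and 71.9 in 2i ungated cells, a log2 ratio of 2.57. Its lowest, median and highest values were 1.60, 383 and 1420 in the former and 0, 1.20 and 509 in the latter, so the ranges overlapped while the medians lay far apart. In small cells the means were 199.5 in N2B27 and 39.0 in 2i, a log2 ratio of 2.33. Dusp6 reached 10 counts in 19 of 21 N2B27 ungated cells (90.5%, 69.6 to 98.8%) and in 8 of 22 2i ungated cells (36.4%, 17.2 to 59.3%).

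Dusp4 (ENSMUSG00000031530, chromosome 8, 34807297 to 34819894), a nuclear phosphatase of ERK and related kinases, had means of 109.6 and 12.96 in N2B27 and 2i ungated cells, a log2 ratio of 2.99. It reached 10 counts in 11 of 21 against 3 of 22 cells, the 3 at 150.3, 78.9 and 53.5. In small cells the means were 123 and 25.9, a log2 ratio of 2.20, with 9 of 20 against 2 of 12 cells at 10 counts and the 2 at 235 and 72.3. In N2B27 its values ran from 0 to 519 in small and from 0 to 822 in ungated cells. Dusp4 had 10 or more counts in 9 of the 21 N2B27 cells with Egr1 and in 11 of the 20 without.

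The Sprouty genes, which encode inhibitors of receptor tyrosine kinase signalling, parted from each other. Spry2 (ENSMUSG00000022114, chromosome 14, 105891947 to 105896819) was present in 2i and changed by less than the fold used. Its lowest, median and highest values in ungated cells were 0.66, 38.7 and 320 in 2i and 0, 23.4 and 423 in N2B27, a log2 ratio of 0.19 that was -1.76 with no filter on cells. In small cells they were 0, 14.6 and 803 in 2i and 0, 29.8 and 644 in N2B27, a log2 ratio of -0.33 that was 3.0 with no filter, with groups that overlap widely. Spry4 (ENSMUSG00000024427, chromosome 18, 38586247 to 38601415) was the member with the lowest level per kilobase in N2B27 ungated cells. It reached 10 counts in 3 of 21 N2B27 ungated cells, at 313, 100.3 and 83.0, and in 2 of 22 2i ungated cells, at 112 and 55.3, for a log2 ratio of 1.52, or 0.55 when log2 values were averaged over cells. In small cells 5 of 20 in N2B27 (8.66 to 49.1%), at 498, 200.2, 146, 130.4 and 21.9, reached 10 counts. They stood against 1 of 12 in 2i (0.21 to 38.5%), at 5.76 in the cell with the most genes detected. The log2 ratio was 5.11, or 232-fold against a floor of 3 counts without that cell. The shares overlapped, and the ratio does not cover the sampling of cells. The highest cell held 55.5% of the N2B27 small and 64.1% of the N2B27 ungated Spry4 counts.

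The ETS factors parted too. Etv4 (ENSMUSG00000017724, chromosome 11, 101769742 to 101785371) was counted mostly in N2B27 cells. In N2B27 ungated cells its lowest, median and highest values were 0, 212 and 567 and 16 of 21 cells (76.2%, 52.8 to 91.8%) had 10 or more counts, against 2 of 22 2i cells (9.09%, 1.12 to 29.2%), at 120.2 and 117 with the other 20 at 0. In small cells 10 of 20 N2B27 cells had 10 counts, at 40.6 to 598, against 1 of 12 2i cells at 73.0. The log2 ratios were 4.21 and 4.0, and both stayed past the fold in all 17 alternatives. Etv5 (ENSMUSG00000013089, chromosome 16, 22381309 to 22439719) was as high in 2i as in N2B27 ungated cells, with lowest, median and highest values of 336, 798 and 2028 in 2i and 123, 1043 and 2932 in N2B27, a log2 ratio of 0.12. In small cells the log2 ratio was -0.58, which rests on the 2i cell with the highest spike-in share at 7301 normalized Etv5 counts. Without that cell the 2i small mean fell from 1111 to 548, below the N2B27 small mean of 742.

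**Figure D3:**
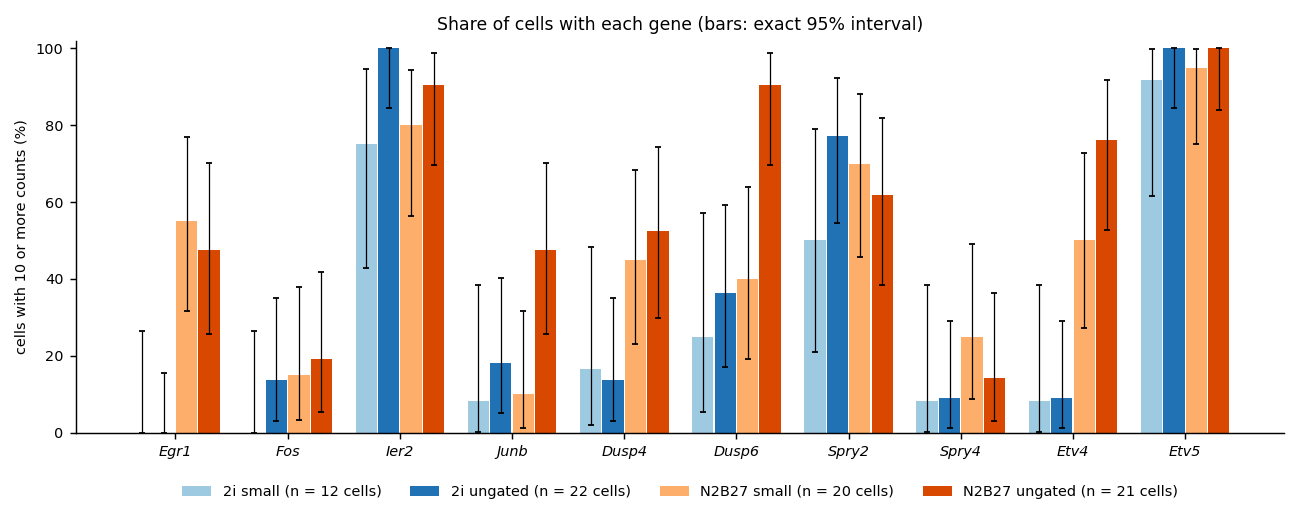
Bars give the share of kept cells with 10 or more counts of each gene in the 4 groups, with exact 95% binomial intervals. For Egr1 the share was 0% in both 2i groups, for Dusp6 it was 90.5% in N2B27 ungated and 40.0% in N2B27 small cells, and Ier2 and Etv5 were at 75% or more in every group.

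Most ungated cells of both media were called G2/M, which allowed the media to be set side by side within that phase, in 14 2i and 15 N2B27 cells. Mean normalized counts there were 0 and 442 for Egr1, 49.1 and 417 for Dusp6, 8.59 and 221 for Etv4, 6.98 and 43.8 for Junb, 3.92 and 60.4 for Dusp4 and 0.062 and 33.7 for Spry4, in 2i and N2B27 respectively. Fos was at 47.4 in 2i and 26.96 in N2B27, and Etv5 at 933 and 1138. In S phase, with 8 2i and 4 N2B27 ungated cells, the means were 0 and 198 for Egr1, 112 and 357 for Dusp6, 14.6 and 258 for Etv4 and 16.4 and 31.1 for Junb, but 28.8 and 27.1 for Dusp4 and 21.2 and 0.27 for Spry4. The 6 members that were higher over all ungated cells were all higher in G2/M cells. They were picked over these same cells, and G2/M cells made up 14 of 22 in 2i and 15 of 21 in N2B27. Their being higher in that phase was therefore largely set by the choice. In S phase Dusp4 and Spry4 were not higher, and Junb was higher by less than the fold used. Shares of all tested genes within a phase were not computed.

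The gate was set against the ungated control to ask how the members differed between cells that entered the 6 h early in the cycle and the mixed population. In N2B27, 1 member was higher in small than in ungated cells by at least 1 on the log2 scale (Spry4) and 2 were lower (Junb and Dusp6), where 11.8% of all tested genes were higher and 17.1% lower. The median over the members was 0.12, against -0.12 over all genes. In 2i, 1 was higher (Spry2) and 3 were lower (Fos, Junb and Spry4), beside 16.3% and 27.8% of all genes, and the median was -0.75, or -0.81 without Egr1, against -0.36 over all genes. Of 10 members these are small numbers beside those backgrounds, and with spike-in size factors 0 were higher and 4 lower in N2B27 small cells, beside 5.13% and 40.5% of all genes, and 1 and 1 in 2i, beside 39.7% and 4.75%. The Spry4 ratio in N2B27, 1.02, rests on 5 against 3 cells, and that of Spry2 in 2i, 1.06, turned to -0.98 when log2 values were averaged over cells. Gates of the same medium share a plate and lane.

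Dusp6 in N2B27 differed between gates in how many cells held it. Of small cells 8 of 20 (40.0%, 19.1 to 63.9%) and of ungated cells 19 of 21 had 10 or more counts, and the log2 ratio of the means was -1.11. Among cells with 10 or more counts the median was 414 in small and 405 in ungated cells. With each cell thinned to the same depth the shares were 38.9% of 18 and 85.7% of 21 cells. For Etv4 the same medians were 184 and 235, with 10 of 20 against 16 of 21 cells and a log2 ratio of -0.90. For Junb, 2 of 20 against 10 of 21 N2B27 cells gave a log2 ratio of -1.44. With poscounts size factors the ratios of Junb and Dusp6 were -0.91 and -0.89, short of the fold used. Spike-in reads made up a median of 2.45% of counts in N2B27 small and 1.14% in N2B27 ungated cells, and the part of RNA content and of phase in these differences was not tested.

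More members were found per cell in N2B27 than in 2i at 1 count or more, a limit open to index exchange. At 1 count or more, at least 5 of the 10 were found in 4 of 12 2i small cells (33.3%, 9.92 to 65.1%), 12 of 22 2i ungated cells (54.5%, 32.2 to 75.6%), 20 of 20 N2B27 small cells (100%, 83.2 to 100%) and 20 of 21 N2B27 ungated cells (95.2%, 76.2 to 99.9%). At 10 counts or more the shares were 16.7% (2.09 to 48.4%), 27.3% (10.7 to 50.2%), 40.0% (19.1 to 63.9%) and 71.4% (47.8 to 88.7%). The medians were 3, 3.5, 4 and 6 members per cell. At this limit the intervals of N2B27 small cells and of both 2i groups overlapped widely. The part of index exchange in the shares at 1 count was not tested. At the higher limit the 2 N2B27 groups thus lay further apart than at the lower one. These tallies restate the members' levels given above, and the matching tally over all tested genes was not computed. In the same order of groups, the median number of genes detected per cell was 7603, 9515.5, 7462.5 and 8200. All 10 members reached 10 counts in 1 N2B27 ungated cell, and all 4 immediate-early genes did so in 1 cell of each N2B27 group and in no 2i cell.

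**Figure D4:**
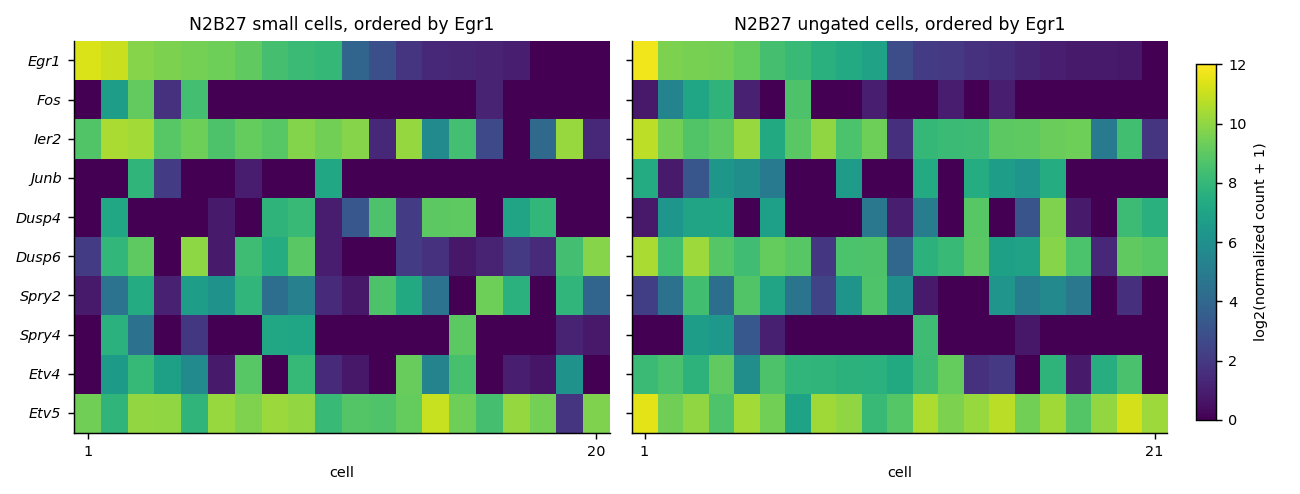
Rows are the 10 genes, columns the kept N2B27 cells of each gate ordered by Egr1, and colour is log2(normalized count + 1). Cells with high Egr1 had Ier2 throughout, 10 or more Fos counts were found in 7 of the 21 cells with 10 or more Egr1 counts and in none of the others, and Dusp4 was spread over cells with and without Egr1.

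Across N2B27 cells the 2 highest correlations among the 45 pairs of members joined immediate-early genes. Over the 41 kept cells, with each gate's mean removed, Pearson's r of log2(normalized count + 1) was 0.54 for Egr1 and Ier2 (0.61 in small and 0.46 in ungated cells) and 0.52 for Egr1 and Fos (0.47 and 0.56). The next pairs were Ier2 and Etv4 (0.43, with 0.58 in small and 0.19 in ungated cells) and Fos and Dusp6 (0.40, with 0.49 and 0.29). Dusp4 and Spry4 followed (0.37, with 0.46 and 0.25). This order did not hold within each gate. In small cells Ier2 and Etv4 lay above Egr1 and Fos, and in ungated cells Egr1 and Etv4 (0.53) lay above Egr1 and Ier2. All 21 cells with Egr1 had Ier2, while of the cells without Egr1 14 had Ier2 and 6 did not. Of the 34 cells without Fos 14 had Egr1, as against 7 of 7 with Fos. The lowest values were Spry2 and Etv5 (-0.25), Fos and Etv5 (-0.21) and Egr1 and Dusp4 (-0.20). Fos and Etv5 were also opposed in N2B27 ungated (-0.51) and 2i ungated cells (-0.64), each resting on 4 or 3 cells with Fos.

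Over all 45 pairs the median r was 0.19, from -0.25 to 0.54, and the median r of members with all tested genes was 0.06. By group the medians were 0.21 over 36 pairs in N2B27 small cells, where Junb was left out as counted in fewer than 5 cells, 0.20 in N2B27 ungated cells, 0.06 over 21 pairs in 2i ungated cells and -0.10 over 6 pairs in 2i small cells, where the median with all genes was 0.13. The N2B27 ungated value was 0.0706 with no filter and 0.0806 with fixed limits on cells. These cells share plate, lane and medium. The member score, the mean of the scaled values, also went with the number of genes detected (r = 0.50 over the 41 cells) and against the spike-in share (r = -0.35), and the part of these in the pairwise values was not tested.

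**Figure D5:**
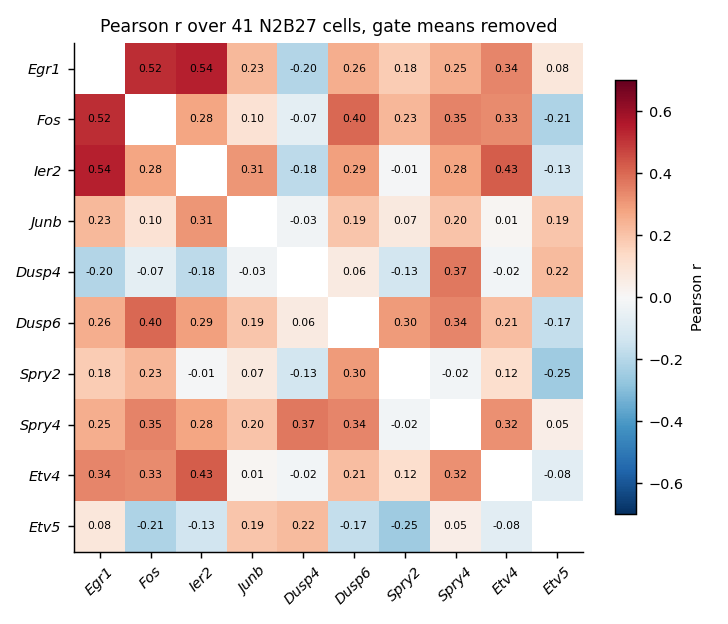
Each square gives Pearson's r between a pair of genes over 41 N2B27 cells after removing gate means. The strongest squares join Egr1 to Ier2 (0.54) and Fos (0.52), and the rows of Dusp4 and Etv5 hold most of the negative values.

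The genes whose pattern over the 41 N2B27 cells was most like the member score, of 6148 ranked, were Echdc2 (r = 0.69), Tcf15 (0.68), Perp (0.66), Fads1 (0.64) and Rab29 (0.59). Tcf15, a basic helix-loop-helix transcription factor, had means of 7.13 and 21.3 in 2i small and ungated cells and 79.0 and 82.8 in N2B27, and its r was 0.93 in small but 0.40 in ungated cells. Perp, a membrane protein of desmosomes, had a log2 ratio of N2B27 to 2i of 2.52 in ungated and 2.41 in small cells. Echdc2 (-0.67 in ungated cells) and Fads1 (0.02) did not share the members' medium difference.

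Other ERK-linked genes were taken as lists. Of all tested genes, 7.49% were higher and 9.92% lower in N2B27 in ungated cells, and 22.3% and 19.2% in small cells. Of 21 other immediate-early genes 7 were tested, and 3 of these were higher and 0 lower in N2B27 ungated than 2i ungated cells, with a median log2 ratio of 0.32, while in small cells 4 were higher and 0 lower. The 3 were Cyr61, a secreted matricellular protein (1.43, means 291 and 108), Myc, a transcription factor (1.14, means 47.4 and 20.9), and Nr4a1, an orphan nuclear receptor (1.07, means 233 and 110.2). Myc was counted in 8 of 21 N2B27 ungated cells, under the share set for naming, and is named after its values were seen. Myc passed the level filter only through the N2B27 groups, as its 2i means averaged under 20. With the genes under the level filter included, 9 of the 21 were higher and 2 lower in ungated cells, and 9 and 2 in small cells. The 2 lower in ungated cells, also named after their values were seen, were Jun and Atf3. Jun had means of 38.9 in 2i and 0.56 in N2B27 (log2 ratio -4.67), but was at 4.65 in small cells. Atf3 had means of 16.5 and 0 (-4.13). They were counted in 4 and 3 of 22 2i ungated cells. Of 15 other feedback regulators 7 were tested, with 1 higher and 0 lower in ungated cells and 5 higher and 0 lower in small cells. Among those 5, Spred1 passed the level filter only through the N2B27 groups, with 2i small and ungated means of 0.90 and 8.97. Spred1 is named after its values were seen. In ungated cells 1 higher of 7 tested feedback regulators was too few to tell from the 7.49% of all tested genes. Dusp1, a nuclear phosphatase, had ungated means of 131 in 2i and 455 in N2B27 (log2 ratio 1.78), but its log2 ratio in small cells was -0.68. Etv1, the third member of the Etv4 and Etv5 subfamily, and Phlda1 lay under the level filter and had log2 ratios of 2.23 and 4.35 in ungated cells. Dusp7, a further phosphatase under the filter and also named after its values were seen, went the other way, with a mean of 23.4 over 22 2i ungated cells and no count in N2B27 ungated cells, and means of 31.2 and 2.39 in small cells.

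The components that carry the signal stood near the background. Of 24 genes of the core cascade, which include Fgf4, its receptors and the RAF and MEK kinases, 17 were tested, with 1 higher and 1 lower in ungated N2B27 cells (median -0.26) and 3 higher and 3 lower in small cells (median 0.18). Over all tested genes 7.49% were higher and 9.92% lower in ungated cells, and 22.3% and 19.2% in small cells. The ungated gene that was lower was Ptpn11, the phosphatase SHP2 (log2 ratio -1.33), which was at 0.95 in small cells. The ungated gene that was higher was Braf, with means of 1.62 in 2i and 18.8 in N2B27 (log2 ratio 2.92). In small cells Braf was at -1.81, and it is named after its values were seen. Fgfr2, among the genes higher in small cells, passed the level filter only through the N2B27 groups. Elk1, among those lower in small cells, passed it only through the 2i groups. Both are named after their values were seen. Of 11 handling and heat-shock genes, measured because immediate-early genes also respond to cell dissociation and sorting, 9 were tested. In ungated cells 1 was higher in N2B27, the stress gene Gadd45b (1.10), and 0 were lower, with a median of 0.22, and in small cells 1 was higher, again Gadd45b (2.09), and 0 lower, with a median of -0.02. Sorting came before the 6 h in medium, and the cells were taken from culture for library preparation after it. The media lay on separate plates, and the part of handling at either step in the members' levels was not tested.

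The second inhibitor was withdrawn at the same time. Of 7 Wnt target genes 4 were tested, and 3 were lower in ungated and 4 lower in small N2B27 cells, with medians of -2.39 and -2.22. Over all tested genes 9.92% were lower in ungated and 19.2% in small cells. Of the 4, Sp5 and Notum passed the level filter only through the 2i groups. Their N2B27 small and ungated means were 0.04 and 4.75, and 17.1 and 10.1. Their being lower in N2B27 was thus partly set by the filter and lends the difference no weight. Sp5, a transcription factor induced by beta-catenin, had means of 37.3 and 4.75 (log2 ratio -2.74), Notum, a secreted Wnt inhibitor, 60.4 and 10.1 (-2.47), and Cdx1, a homeobox factor, 109.3 and 21.3 (-2.30), in 2i and N2B27 ungated cells. Lef1, the remaining tested gene, was at 0.46 in ungated and -2.51 in small cells. Axin2, under the level filter, went the other way in ungated cells, with means of 14.7 and 38.8 (log2 ratio 1.34). In small cells Axin2 was at -2.03. Lef1 and Axin2 are named after their values were seen. Over all 7 genes 1 was higher and 4 were lower in ungated cells, and 1 and 5 in small cells. The contributions of removing each inhibitor, and LIF where it was present, to the members' levels cannot be told apart in this design.

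Between gates, 1 of the 7 tested other immediate-early genes was higher and 2 lower in N2B27 small cells, and 0 and 4 in 2i. For the other feedback regulators it was 3 higher and 0 lower in N2B27 and 1 and 4 in 2i, for the core cascade 0 and 4, and 1 and 6, for the handling and heat-shock genes 0 and 0 in both media, and for the Wnt targets 0 and 2, and 0 and 0. Over all tested genes 11.8% were higher and 17.1% lower in N2B27 small cells, and 16.3% and 27.8% in 2i. No difference of a list is read from counts this small.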

How the data were processed

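Single-cell counts of 4 samples of 24 cells were used, 1 sample per group. Per the labels and the study's methods, libraries were prepared by Smart-seq2 with Nextera XT and sequenced paired-end. The submitters' processing notes name Trim Galore 0.4.4, GSNAP, HTSeq (version not given in the sources used here), DESeq2 and mm10. The deposited count tables hold whole read counts per Ensembl gene and cell made by the authors with no normalization, and without molecular identifiers. Cells were placed in their groups by the authors' list of sequencing runs. Of all counts 27.6% lay in rows that name no gene and were left out.

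Symbols and positions came from GENCODE M21. Cells beyond 3 median absolute deviations from their plate's median for counts, genes detected or mitochondrial share were left out with scater 1.30.1 (R 4.3.3). Counts were divided by DESeq2 1.42.0 size factors from 1227 genes counted in every kept cell, and phases were called with cyclone (scran 1.30.0). A group's value is the mean over cells, and a ratio adds a pseudocount of 1. A log2 ratio of 1 or more was the size reported, with no p-value since each group is 1 sample. Count intervals are exact Poisson and share intervals exact Clopper-Pearson, both at 95%. Doublets were not called, and the cell of 15712 genes is given apart. Ratios were tested on simulated data. Alternatives were other size factors, cell filters, gene filters, pseudocounts, summaries and thinning.

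The members and lists were chosen with earlier results of these data known. All 10 members are named. Of each other list (other immediate-early genes, other feedback regulators, core cascade, handling and heat-shock genes, Wnt targets) at most 3 genes per direction with the largest ungated N2B27 to 2i ratio are named, if the higher group averaged 20 normalized counts and 50% or more of its cells held a count. The 5 genes most like the member score are named too. Myc, Jun, Atf3, Spred1, Dusp7, Braf, Fgfr2, Elk1, Lef1 and Axin2 are named outside this rule, after their values were seen.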

Additional observations from a re-analysis of the deposited data

Results flagged for a closer look

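Fos and Spry4 are listed here because their differences pointed apart between gates or media. These differences of differences were not tested, as each group is 1 sample. For Fos the log2 ratio of N2B27 to 2i was -0.013 in ungated and 5.54 in small cells, and that of small to ungated cells was 0.39 in N2B27 and -5.17 in 2i, where the 2i small group had 3 Fos counts. With no filter on cells the ungated ratio was 6.10, and with fixed limits 6.02, and the N2B27 gate ratio -5.79 and -5.75. For Spry4 the log2 ratio of small to ungated cells was 1.02 in N2B27 and -2.57 in 2i, the latter on 15 counts in 1 2i small cell, and it was 0.56 in 2i with spike-in size factors.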

How the results depend on the processing

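The counts of members higher in N2B27 stayed within 1.5 times of 6 (ungated) and 8 (small) in every alternative, and the medians over the members kept their direction there (1.44 to 2.82 and 1.5 to 3.55). The following counts and medians moved. With no filter on cells the members lower in N2B27 numbered 2 in ungated and 1 in small cells, and with fixed limits on cells 1 and 1, in place of 0. Members lower in small than ungated N2B27 cells, 2 in the report, numbered 4 with no filter, 4 with fixed limits, 4 with spike-in, 1 with scran and 0 with poscounts size factors. Those higher, 1 in the report, numbered 2 with fixed limits, poscounts or scran and 0 with spike-in size factors, averaged log2 values or a pseudocount of 5. In 2i, lower members (3) numbered 5 with no filter or without each gene's highest cell and 1 with spike-in size factors. Higher members in 2i (1) numbered 2 with fixed limits, with scran, after thinning, without the 2i small cell of highest spike-in share or without the cell of most genes, 3 with poscounts, and 0 with averaged log2 values or without each gene's highest cell. The median of the gate ratios was 0.549 in N2B27 with poscounts size factors and ran from -0.77 to 0.55 over all alternatives, and in 2i from -1.36 to 0.12. With detection at 10 counts in place of 1, the share of cells with at least 5 members went from 54.5% to 27.3% in 2i ungated, from 100% to 40.0% in N2B27 small and from 95.2% to 71.4% in N2B27 ungated cells. The median r in N2B27 ungated cells was 0.0706 with no filter, 0.0806 with fixed limits and 0.256 with spike-in size factors. Among ratios past the fold, direction turned for Egr1 in small cells between media with no filter (-2.29, where an excluded 2i cell of size factor near 0 held 262 counts), for Spry2 between gates in 2i with no filter (-0.90) and averaged log2 values (-0.98), for Ier2 in small cells between media (-0.62) and for Spry4 between gates in 2i (0.56), both with spike-in size factors. Ratios short of the fold came past it with the opposite sign for Fos (6.10 with no filter, 6.02 with fixed limits), Ier2 (-2.66, -2.73) and, with no filter, Spry2 (-1.76) between media in ungated cells, for Spry2 (3.0, no filter) in small cells, for Egr1 (-4.43 with either) and Fos (-5.79, -5.75) between gates in N2B27, and between gates in 2i for Etv5 (-1.17, averaged log2 values) and Etv4 (2.78, thinned cells). For these turns the cause was not tested. Spike-in size factors moved the median of all genes by -1.66 for N2B27 against 2i in small cells and by 1.15 for small against ungated in 2i, and poscounts by 0.44, 0.14, 0.46 and 0.73 in the 4 comparisons. The pairwise r within S phase was not run for N2B27 ungated cells, which had 4 such cells. No paired analysis was possible because each group is 1 sample.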
